A study of Mus musculus with 18 samples.

Results

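Steap1, Cd209c and 1190007I07Rik are 3 genes outside the classic unfolded protein response (UPR) that were chosen by their large increase in read counts after 18 h of cyclopiazonic acid (CPA) in MIN6 cells, a β-cell line derived from a mouse insulinoma. CPA inhibits SERCA, the pump that fills the endoplasmic reticulum (ER) with calcium, and thereby causes ER stress. Cells received DMSO for 18 h (control), 200 µM CPA for 1 h (CPA1) or 200 µM CPA for 18 h (CPA18), in 3 independent experiments, and each treatment of an experiment gave 1 mRNA-seq and 1 Ribo-seq library, 18 libraries in all. Ribo-seq sequences the mRNA fragments that ribosomes protect, and its RPKM (reads scaled by transcript length and library total) divided by that of mRNA-seq is the ribosome occupancy of an mRNA. They are 3 of 17207 genes in the tables and of 6929 with a transcript that had at least 1 read in every library. Because the increase at 18 h chose them, their values at 18 h are given as a description without a test, and only the 1 h comparison, which shares the control libraries, was tested. MIN6 is a single transformed line that stands in for primary β-cells, and all groups are bulk cultures, in which fewer cells of a kind and less RNA per cell cannot be told apart. For the control libraries of experiment 2 the descriptions name the other assay than the titles and table headers, which were followed here. Without these libraries the log2 fold changes at 18 h given below were 5.07, 4.52 and 1.77 in mRNA-seq and 3.58, 3.82 and 3.07 in Ribo-seq for Steap1, Cd209c and 1190007I07Rik, and the occupancy changes -1.42, -0.68 and 1.37. Without them the 1 h values were 0.45, -0.0043 and 0.43 in mRNA-seq and -0.22, 0.80 and 1.62 in Ribo-seq, and those of occupancy -0.67, 0.81 and 1.23.

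Steap1 encodes a six-transmembrane epithelial antigen of the prostate, a heme-binding membrane protein. Its relatives Steap2, Steap3 and Steap4 reduce iron and copper at membranes through a domain that Steap1 lacks. Cd209c (also called SIGNR2) belongs to the mouse relatives of human DC-SIGN, C-type lectins that bind sugars and are best known from dendritic cells and macrophages. 1190007I07Rik is the mouse counterpart of a human gene for a mitochondrial micropeptide (UQCC6, or brawnin) that takes part in the assembly of respiratory chain complex III.

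The genes lie on the minus strand of 3 chromosomes of GRCm38.p6. Steap1 (NM_027399.3, 1216 nt) occupies chr5:5736322-5749317 with 5 exons, and an antisense model gene, Gm46900, overlaps its first exon. The gene record of Cd209c, with its predicted transcripts, lies at chr8:3940081-3954746 in a cluster with Cd209b and Cd209d. Its transcript NM_130903.4 (1550 nt) lies at chr8:3940222-3946863, and 955 nt of this transcript, all in exon 1, are 5′ UTR. 1190007I07Rik lies at chr10:82619851-82623228 with 3 exons, and its 3 transcripts of 748, 619 and 560 nt differ only in where exon 1 ends. They share 1 open reading frame of 204 nt, which is shown because it is the whole coding part of this gene. It is split between exon 2 (chr10:82622708-82622815) and exon 3 (chr10:82620122-82620217), and capitals mark the start and stop codons.
1190007I07Rik open reading frame: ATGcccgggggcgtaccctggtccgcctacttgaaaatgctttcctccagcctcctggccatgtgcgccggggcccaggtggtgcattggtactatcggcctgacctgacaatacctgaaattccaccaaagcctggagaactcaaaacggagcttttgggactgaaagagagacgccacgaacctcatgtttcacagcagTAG

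The windows from 250 bases before to 50 bases after the start site (RefSeq, GRCm38.p6) are shown for Steap1 (chr5:5749268-5749567) and 1190007I07Rik (chr10:82623179-82623478), since both increased after 18 h, to let their upstream letters be read beside the classic UPR elements. Capitals mark CCACG, the letters that end the ER stress response element, and the E-box CACGTG, on either strand.
Steap1 promoter: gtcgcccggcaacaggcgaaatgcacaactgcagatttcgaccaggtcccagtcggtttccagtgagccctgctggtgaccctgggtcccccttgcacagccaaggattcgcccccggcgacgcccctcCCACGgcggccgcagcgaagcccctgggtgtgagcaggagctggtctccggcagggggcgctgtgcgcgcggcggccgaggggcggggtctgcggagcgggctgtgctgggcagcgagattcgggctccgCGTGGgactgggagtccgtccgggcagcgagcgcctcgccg
1190007I07Rik promoter: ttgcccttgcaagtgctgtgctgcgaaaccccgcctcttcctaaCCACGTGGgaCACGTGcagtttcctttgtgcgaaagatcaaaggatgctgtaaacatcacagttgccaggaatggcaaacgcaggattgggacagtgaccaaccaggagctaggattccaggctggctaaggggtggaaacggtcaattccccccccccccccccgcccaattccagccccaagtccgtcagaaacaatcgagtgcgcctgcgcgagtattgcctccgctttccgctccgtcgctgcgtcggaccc
CCACG was present 2 times in the Steap1 window, 121 bases before and 9 bases after the start site, and 32.8% of 32851 promoter windows held it. The 1190007I07Rik window held CACGTG 2 times, 205 and 196 bases before the start site, the first of them inside overlapping CCACG letters on both strands, and 7.15% of all windows held CACGTG. None of the 3 windows held the full ER stress response element (CCAAT, a spacer and CCACG), its second form (ATTGG, 1 base and CCACG), TGACGTGG, TGACGTCA or the amino acid response element TGATGNAA, which stood in 0.119%, 0.0365%, 0.676%, 1.79% and 3.97% of windows on either strand. The Cd209c window, at the start of NM_130903.4 (chr8:3946814-3947113), is not shown. These matches describe letters and not binding.

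Steap1 mRNA was scarce in unstressed cells and abundant after 18 h of CPA. The control libraries held 1, 6 and 17 mRNA-seq reads in experiments 1, 2 and 3 (1.58, 3.0 and 5.81 RPKM), the CPA1 libraries 2, 4 and 30 (1.00, 2.17 and 13.0 RPKM) and the CPA18 libraries 109, 903 and 278 (72.2, 156 and 127 RPKM). All CPA18 libraries were above every control and CPA1 library, and within control and CPA1 the order of the experiments was the same, with experiment 3 highest. The mean rose from 3.46 ± 2.15 RPKM in control (SD, n = 3) to 118 ± 42.7 at 18 h, a log2 fold change of 5.20 (SE 0.41), or 36.7-fold, the 2nd highest of 6929 genes. Ratios to the control of the same experiment were 45.7, 52.1 and 21.9, with exact 95% counting intervals of 8.04 to 1823, 23.8 to 142 and 13.4 to 38.1. The first of these rests on a single control read.

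Ribosome footprints on Steap1 also increased at 18 h, with a smaller fold change than the mRNA. Ribo-seq counted 7, 6 and 10 reads in control (7.01, 5.31 and 7.59 RPKM), 4, 5 and 3 in CPA1 (6.34, 10.5 and 5.24 RPKM) and 18, 32 and 63 in CPA18 (88.1, 130 and 93.6 RPKM). The CPA18 libraries again lay above all others, and control and CPA1 libraries overlapped. The log2 fold change at 18 h was 3.91 (SE 0.36), or 15.0-fold, from a mean of 6.64 ± 1.19 to 104 ± 22.5 RPKM (SD, n = 3). Steap1 thus had the 8th highest increase of 6929 genes in Ribo-seq.

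Cd209c had the highest mRNA-seq RPKM of the 3 genes after 18 h, but not the highest Ribo-seq RPKM. In mRNA-seq it had 9, 19 and 29 reads in control (11.1, 7.45 and 7.77 RPKM), 22, 23 and 30 in CPA1 (8.65, 9.81 and 10.2 RPKM) and 370, 2146 and 540 in CPA18 (192, 291 and 194 RPKM). The 6 control and CPA1 libraries stayed within 7.45 to 11.1 RPKM, and the CPA18 libraries stood far above them. The mean went from 8.79 ± 2.05 to 226 ± 56.7 RPKM (SD, n = 3), a log2 fold change of 4.76 (SE 0.33), or 27.0-fold, the 3rd highest of 6929 genes. Ratios within experiments were 17.3, 39.1 and 24.9, with counting intervals of 8.99 to 38.0, 25.0 to 65.0 and 17.2 to 37.6.

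Far fewer ribosome footprints were counted on Cd209c than mRNA reads. The CPA18 libraries also had smaller totals in Ribo-seq (168129 to 553842 reads) than in mRNA-seq (1241570 to 4755030 reads). Ribo-seq gave 2, 2 and 13 reads in control (1.57, 1.39 and 7.74 RPKM), 8, 2 and 5 in CPA1 (9.94, 3.29 and 6.85 RPKM) and 30, 4 and 45 in CPA18 (115, 12.7 and 52.4 RPKM). The CPA18 libraries spread widely, and the lowest of them, in experiment 2 with 4 reads, was close to the highest CPA1 library. The log2 fold change at 18 h was 3.76 (SE 0.43), or 13.6-fold, and it was 2.81 without experiment 1 and 5.13 without experiment 3. Ratios within experiments were 73.3, 9.15 and 6.77.

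1190007I07Rik had a smaller log2 fold change at 18 h in mRNA-seq than in Ribo-seq, with an approximate 95% interval of -0.34 to 2.55 for the difference. Only its 748 nt transcript had reads in every library, with 1, 4 and 9 mRNA-seq reads in control (2.57, 3.25 and 5.0 RPKM), 8, 4 and 8 in CPA1 (6.52, 3.53 and 5.65 RPKM) and 5, 59 and 25 in CPA18 (5.38, 16.6 and 18.6 RPKM). The CPA18 library of experiment 1 lay within the range of the CPA1 libraries, so the groups overlapped. The log2 fold change at 18 h was 1.90 (SE 0.52), or 3.74-fold, the 145th highest of 6929 genes. With the reads of all 3 transcripts summed, the mean went from 12.5 ± 6.17 to 30.4 ± 17 RPKM (SD, n = 3), a log2 fold change of 1.29.

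In Ribo-seq the same transcript of 1190007I07Rik had 2, 5 and 6 reads in control (3.26, 7.19 and 7.40 RPKM), 4, 4 and 10 in CPA1 (10.3, 13.6 and 28.4 RPKM) and 5, 9 and 22 in CPA18 (39.8, 59.2 and 53.1 RPKM). By the RPKM of this transcript the CPA18 libraries lay above all control and CPA1 libraries, which held for 19.5% of all genes. The CPA1 values lay above those of control, on few reads, and the share of genes with such an order was not counted. With all transcripts summed, CPA1 and CPA18 overlapped, since the CPA1 library of experiment 3 had 53.9 RPKM and the CPA18 library of experiment 1 had 39.8 RPKM. The log2 fold change at 18 h was 2.96 (SE 0.47), or 7.77-fold, the 30th highest. Summed over all transcripts, the means were 11.2 ± 5.02, 35.6 ± 15.9 and 77.1 ± 38.9 RPKM in control, CPA1 and CPA18 (SD, n = 3), and the isoforms share so much sequence that reads cannot be assigned to 1 of them.

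All CPA18 libraries were above all control and CPA1 libraries for 2 of the 3 genes in mRNA-seq and for 3 of 3 in Ribo-seq, the third being 1190007I07Rik by its 748 nt transcript. With its transcripts summed, it was 2 of 3 in Ribo-seq. The same held for 10.0% of the 6929 genes in mRNA-seq and 19.5% in Ribo-seq, and nothing is read from the members' count because this contrast chose them.

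**Figure D1:**
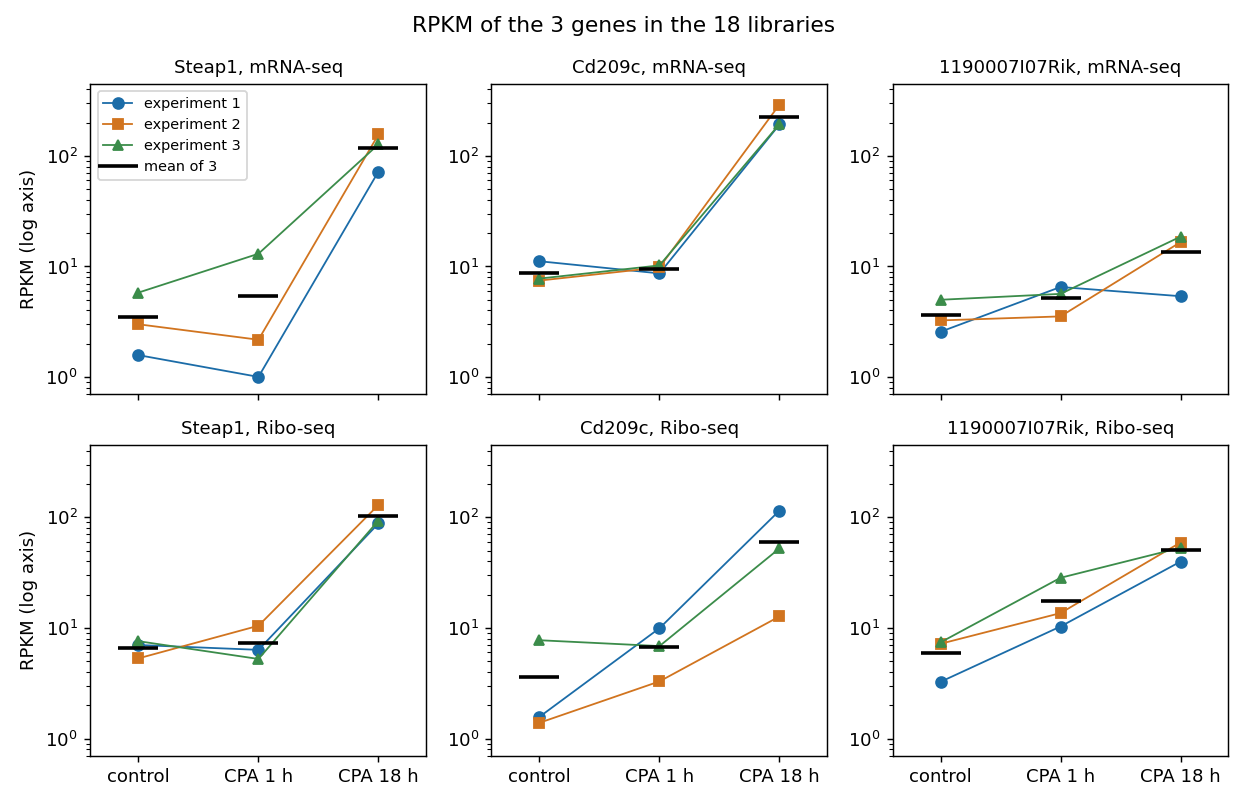
RPKM (log axis) of Steap1, Cd209c and 1190007I07Rik in control, CPA1 and CPA18 libraries of mRNA-seq (top) and Ribo-seq (bottom); coloured points joined by lines are the 3 experiments and black bars their means. Steap1 and Cd209c stay at or below 13.0 RPKM in control and CPA1 and reach 72.2 to 291 RPKM in the CPA18 mRNA-seq libraries, whereas the 748 nt transcript of 1190007I07Rik goes from 3.26 to 7.40 RPKM in control to 39.8 to 59.2 RPKM in the CPA18 Ribo-seq libraries.

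Whether the genes had already moved after 1 h was tested with edgeR (quasi-likelihood, Benjamini-Hochberg adjustment over 6929 genes), and none of the 3 passed an adjusted p of 0.05 in either assay. Over all genes, 0.938% passed in mRNA-seq (0.505% rose and 0.433% fell) and 6.67% in Ribo-seq (3.75% rose and 2.92% fell). In mRNA-seq the log2 fold changes at 1 h were 0.56 for Steap1 (SE 0.48, adjusted p = 0.976), 0.22 for Cd209c (SE 0.35, adjusted p = 0.989) and 0.55 for 1190007I07Rik (SE 0.61, adjusted p = 0.976). The approximate 95% intervals ran from -0.38 to 1.50, from -0.47 to 0.92 and from -0.65 to 1.75.

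In Ribo-seq the 1 h values were 0.11 for Steap1 (SE 0.55, adjusted p = 0.951) and 0.74 for Cd209c (SE 0.58, adjusted p = 0.545). 1190007I07Rik had the largest value, 1.51 (SE 0.53), or 2.85-fold, with an adjusted p of 0.0686 by edgeR, and its ratio to control was 3.16, 1.89 and 3.84 in the 3 experiments, above 1 in all of them. It passed the threshold when the reads of its 3 transcripts were summed without the detection filter (log2 fold change 1.67, edgeR adjusted p = 0.0110) and with limma on log2(RPKM + 0.5) (1.42, adjusted p = 0.0187). The counts behind it were 13 reads in 3 control and 18 reads in 3 CPA1 libraries, which had smaller totals.

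Of 27 measured genes of the classic UPR list, 4 rose and 0 fell at 1 h in mRNA-seq, among them Chac1, which degrades glutathione (log2 fold change 2.94, edgeR adjusted p = 8.5e-18), and the stress transcription factor Ddit3 (1.98, edgeR adjusted p = 0.000149). In Ribo-seq 7 rose and 3 fell. At 18 h, when 34.9% of all genes passed in mRNA-seq and 31.8% in Ribo-seq, 25 rose in mRNA-seq and 26 in Ribo-seq, with median log2 fold changes of 1.74 and 1.48, beside 0.38 and 0.42 over all genes. The 18 h values of Trib3, a pseudokinase induced by stress (5.28 in mRNA-seq and 5.18 in Ribo-seq), and Ddit3 (4.60 and 5.79) stood beside those of Steap1 (5.20 and 3.91) and Cd209c (4.76 and 3.76).

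**Figure D2:**
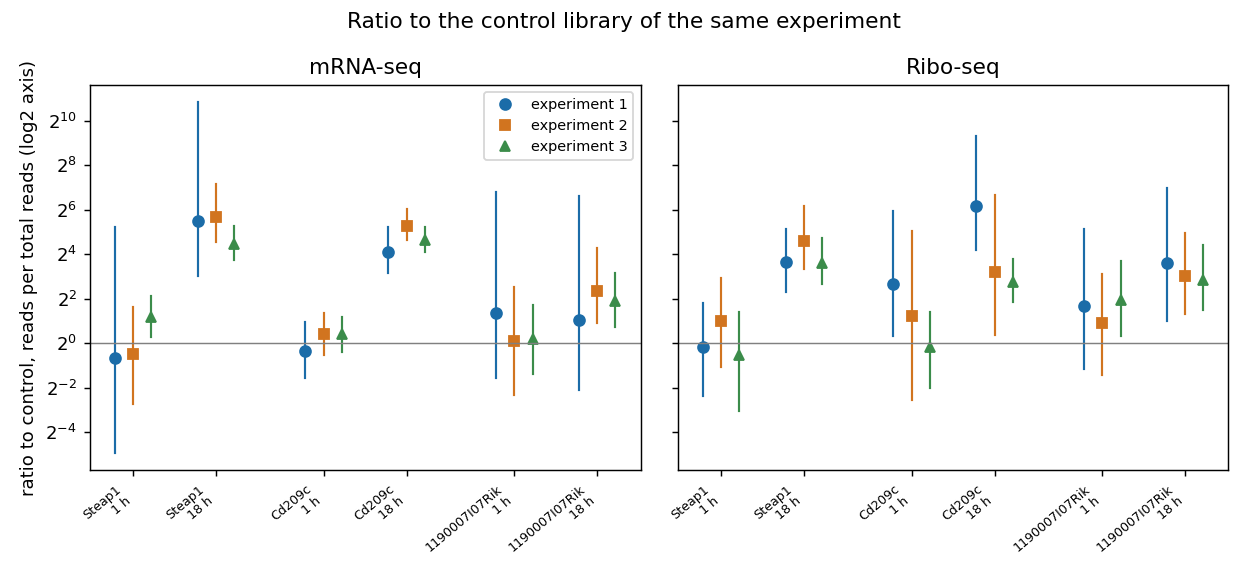
Ratio of the reads per total reads (log2 axis) to the control library of the same experiment, after 1 h and 18 h of CPA, in mRNA-seq (left) and Ribo-seq (right); vertical lines are exact 95% counting intervals. At 1 h most intervals cross 1, and at 18 h the ratios of Steap1 lie between 12.3 and 52.1 and those of Cd209c between 6.77 and 73.3.

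Ribosome occupancy differed in level among the genes, and its changes carried large errors. For Steap1 it was 4.44, 1.77 and 1.31 in control, 6.32, 4.82 and 0.402 in CPA1 and 1.22, 0.830 and 0.736 in CPA18. It fell in 3 of 3 experiments from control to 18 h, with a log2 change of -1.23 (SE 0.61) in the joint model of both assays. The control value of experiment 1 rests on 1 mRNA-seq read.

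Cd209c had few footprints for its mRNA reads in every treatment. Its occupancy was 0.141, 0.186 and 0.996 in control, 1.15, 0.335 and 0.670 in CPA1 and 0.599, 0.0436 and 0.271 in CPA18. The mean of 0.305 at 18 h (SD 0.279, n = 3) was higher than that of only 0.447% of the 6929 genes, and the control mean of 0.441 was higher than 5.77%. The RPKM of both assays covers the whole transcript, of which 34.6% is coding and 61.6% is 5′ UTR. The part that this 5′ UTR and its repeated sequence (below) have in the low occupancy was not tested. The log2 change from control to 18 h was -0.97 (SE 0.58), with a value of 0.36 without experiment 3.

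1190007I07Rik had the highest occupancy of the 3 genes at 18 h. It was 1.27, 2.21 and 1.48 in control, 1.58, 3.85 and 5.03 in CPA1 and 7.39, 3.57 and 2.86 in CPA18. It was higher than in control in 3 of 3 experiments at both times, with log2 changes of 0.99 at 1 h (SE 0.80, edgeR adjusted p = 0.887) and 1.11 at 18 h (SE 0.74). For Steap1 and Cd209c the 1 h changes were -0.47 (SE 0.75, edgeR adjusted p = 0.948) and 0.53 (SE 0.67, edgeR adjusted p = 0.931). Over all genes, 0.0866% passed the threshold at 1 h and 0.476% at 18 h.

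**Figure D3:**
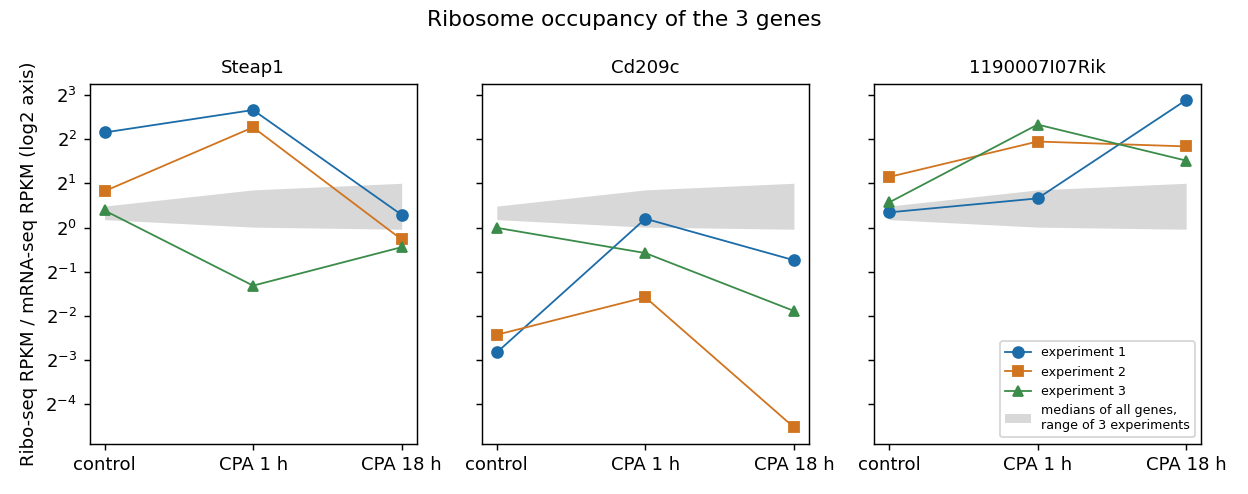
Ribosome occupancy (Ribo-seq RPKM over mRNA-seq RPKM, log2 axis) by treatment and experiment; the grey band is the range, over the 3 experiments, of the median of all genes. Cd209c lies under the band at 18 h in all experiments and 1190007I07Rik above it, while Steap1 goes from 1.31 to 4.44 in control to 0.736 to 1.22 at 18 h.

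Part of the Cd209c transcript is not particular to its locus. The transcripts were cut into all stretches of 30 bases (30-mers), a length within that of the reads kept, and the copies of each were counted in GRCm38.p6. Of 1521 Cd209c 30-mers, 862 (56.7%) occurred at more than 1 place, and 765 (50.3%) at more than 10. All of them lay in the 5′ UTR, where 91.7% of 940 30-mers were repeated with a median of 103 copies and up to 2031, and none of the 537 in the coding part or the 44 in the 3′ UTR was repeated. The tables give 1 count per transcript, so how many Cd209c reads came from the repeated stretch was not tested.

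The repeated stretch also occurs in other transcripts. Cd209c shared 30-mers on the same strand with 3 other genes of the deposited tables, at most 16 of them, and on the opposite strand with 3. Of these, 2610524H06Rik (16 shared) had a log2 fold change of 0.79 at 18 h in mRNA-seq (SE 0.27, edgeR adjusted p = 0.0127; 0.0844 with TMM scaling), and E030030I06Rik (52 shared on the opposite strand) had 1.88 (SE 0.34, edgeR adjusted p = 0.000328 without the detection filter). Synj2bp (29 shared on the opposite strand) had 0.28 (SE 0.31, edgeR adjusted p = 0.512). Other RNAs that share more 30-mers, with up to 156 on the opposite strand, were not analysed here.

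Steap1 and 1190007I07Rik differed from Cd209c in this respect. None of the 1187 Steap1 30-mers occurred elsewhere in the genome, and 45 were antisense to Gm46900, so without a stated strand setting reads in exon 1 cannot be told apart from that model gene. For the 748 nt transcript of 1190007I07Rik, 274 of 719 30-mers (38.1%) were repeated, but only 17 at more than 10 places, all in the 3′ UTR. Within its reading frame 49.5% were repeated, with at most 3 copies, and 198 of the 204 nt lay in a repeated 30-mer. Of the 30-mers of the transcript, 165 were shared with the non-coding RNA 1810014B01Rik, which was not analysed here. The counts of 1190007I07Rik are therefore uncertain to the extent that such copies are transcribed.

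**Figure D4:**
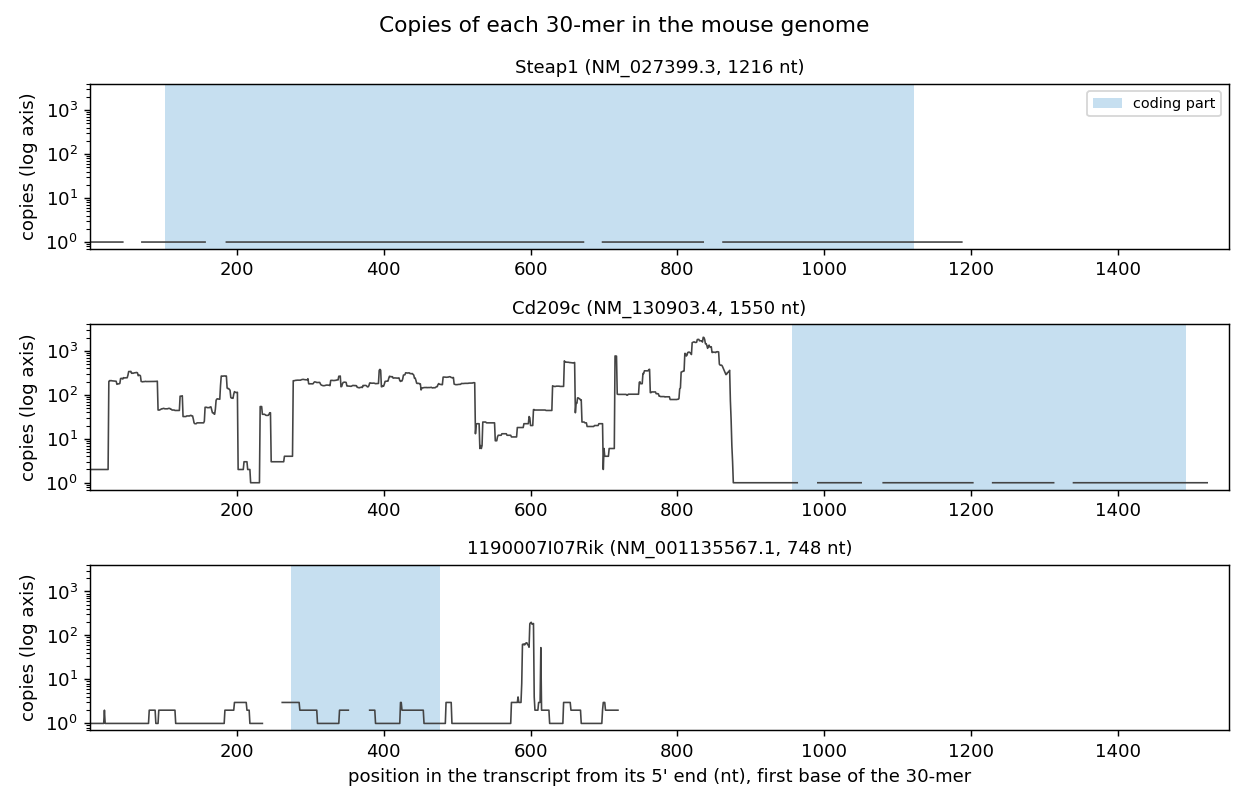
Number of copies in the mouse genome (log axis) of each 30-mer along the transcripts of Steap1, Cd209c and 1190007I07Rik, against its position from the 5′ end; the blue area is the coding part and gaps are 30-mers across an exon junction, which the genome does not hold. Cd209c reaches 2031 copies in its 5′ UTR and falls to 1 before the coding part, and Steap1 stays at 1.

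The other genes of the STEAP family were low in every library. Steap2, Steap3 and Steap4 had 14, 18 and 0 mRNA-seq reads over the control libraries and 34, 7 and 0 over the CPA18 libraries, against 24 and 1290 for Steap1. The summed RPKM of all 3 was 1.51 to 1.81 in control and 0.490 to 0.915 at 18 h. None had reads in all 18 libraries, so none was tested. Steap2, 41.7 kb from Steap1 and on the same strand, had 0.361 ± 0.239 RPKM in control and 0.408 ± 0.152 at 18 h (SD, n = 3), and Cfap69 beyond it had 2 reads in each of these groups. Zfp804b and Tex47, on the other side and at least 1020 kb away, had 0 mRNA-seq reads in both.

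Genes of iron and copper handling, the function of the STEAP reductases, moved in both directions at 18 h. Of 25 genes 16 were measured, 4 rose and 2 fell in mRNA-seq, with a median log2 fold change of -0.01, beside 27.0% that rose and 7.89% that fell over all genes (25.6% and 6.25% in Ribo-seq). With TMM scaling 3 rose and 6 fell (median -0.35), and with DESeq2 2 rose and 4 fell (median -0.41). Tfrc, the transferrin receptor that imports iron, fell from 23.7 to 2.51 RPKM in mRNA-seq (log2 fold change -2.89, SE 0.34, edgeR adjusted p = 2.3e-14) and by 2.79 on the log2 scale in Ribo-seq (SE 0.26, edgeR adjusted p = 4.8e-17). Hmox1, the enzyme that breaks down heme and frees its iron, rose by 1.81 in mRNA-seq (SE 0.28, edgeR adjusted p = 2.5e-08) and 2.96 in Ribo-seq (SE 0.22, edgeR adjusted p = 2.7e-23).

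The ferritin light chain Ftl1, a subunit of the iron store, had a log2 fold change of -0.15 in mRNA-seq at 18 h (SE 0.25, edgeR adjusted p = 0.673) and rose by 1.74 in Ribo-seq (SE 0.18, edgeR adjusted p = 1.4e-14). Its ribosome occupancy rose by 1.47 at 1 h (edgeR adjusted p = 0.00995) and 1.90 at 18 h (edgeR adjusted p = 3.4e-05), in contrast to Steap1, whose occupancy had a value of -1.23 at 18 h. In mRNA-seq Ftl1 passed as lower with TMM scaling (-0.47, edgeR adjusted p = 0.0113) and DESeq2 (-0.51, adjusted p = 0.0055). The directions of Tfrc and Hmox1 in both assays and of Ftl1 in Ribo-seq were the same with TMM scaling, DESeq2 and totals without the insulin genes.

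No other CD209 gene was expressed at a level near that of Cd209c. Cd209a, Cd209f and Cd209g had no reads, Cd209b had 8, 4 and 9 mRNA-seq reads summed over the control, CPA1 and CPA18 libraries, Cd209d had 0, 0 and 2 and Cd209e had 1, 3 and 0. Their summed level was at most 1.93 RPKM in any mRNA-seq library, against 192 to 291 RPKM for Cd209c at 18 h. Cd209b and Cd209d are also the neighbours of Cd209c on 1 side, 13.2 and 61.5 kb away, and Cd209f and Cd209g those on the other. Of 19 other C-type lectins 1, Clec11a, was measured, and it had a log2 fold change of 0.55 in mRNA-seq and of 1.17 in Ribo-seq at 18 h (SE 0.44, edgeR adjusted p = 0.0300). The Ribo-seq call was lost with TMM scaling (edgeR adjusted p = 0.167), totals without the insulin genes (edgeR adjusted p = 0.0897) and DESeq2 (adjusted p = 0.303).

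Markers of the myeloid and dendritic cells in which CD209 lectins are known were near the detection limit. Of 18 markers Ptprc, Itgax and Lyz2 had no reads in any library, and none had reads in all 18. Their summed level was 5.61 to 21.3 RPKM in control and 7.15 to 24.1 RPKM at 18 h in mRNA-seq. In Ribo-seq it was 2.39 to 4.86 RPKM in control and 9.86 to 20.3 RPKM at 18 h, without overlap, and its part in the Cd209c values was not tested. Cd74, the invariant chain of MHC class II, had 1, 1 and 1 mRNA-seq reads in control and 3, 94 and 15 at 18 h, and rose by 3.93 on the log2 scale in the fit without the detection filter (SE 0.75, edgeR adjusted p = 0.00056), while the class II genes H2-Aa and H2-Ab1 had 2 and 1 mRNA-seq reads over all 9 libraries. Tyrobp, an adaptor of myeloid receptors, had 1, 15 and 10 mRNA-seq reads in control and 0, 8 and 2 at 18 h, with means of 8.55 and 1.57 RPKM.

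Complex III, for whose assembly the counterpart of 1190007I07Rik is known, was measured through 11 of 16 other genes, and mt-Cytb was not analysed here. At 18 h 4 rose and 0 fell in mRNA-seq (median log2 fold change 0.53) and 5 rose and 0 fell in Ribo-seq (median 0.33), while 27.0% and 25.6% of all genes rose. Uqcrq, a small subunit, rose by 1.40 in mRNA-seq (SE 0.25, edgeR adjusted p = 1.1e-06) and 1.89 in Ribo-seq (SE 0.17, edgeR adjusted p = 1.4e-17). Uqcr10, another small subunit, rose by 1.50 in Ribo-seq (SE 0.22, edgeR adjusted p = 1.4e-08), with 0.23 in mRNA-seq (SE 0.27). With TMM scaling 1 rose and 2 fell in mRNA-seq and 2 rose and 1 fell in Ribo-seq.

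Among the assembly factors, Uqcc3 had log2 fold changes at 18 h of 0.53 in mRNA-seq (SE 0.31, edgeR adjusted p = 0.181) and 1.12 in Ribo-seq (SE 0.42, edgeR adjusted p = 0.0304; 0.173 with TMM scaling). Uqcc2 had -0.04 and 0.24. For 1190007I07Rik the values were 1.90 and 2.96, and 1.47 and 2.60 with TMM scaling. In the fit without the detection filter, Uqcc1 rose by 1.12 in mRNA-seq at 18 h (SE 0.35, edgeR adjusted p = 0.0190). In that fit Bcs1l had 0.30 (SE 0.39, edgeR adjusted p = 0.603) and 1190007I07Rik had 1.29 (SE 0.42). With all transcripts summed, 1190007I07Rik had 30.4 ± 17 RPKM in mRNA-seq at 18 h (SD, n = 3). Its only transcript with reads in every library had 13.5 ± 7.12 RPKM. The summed level of 1190007I07Rik was below the 59.7 RPKM of Uqcc3 and the 545 RPKM of Uqcc2. Of its neighbours, Tdg, a DNA repair glycosylase that starts 6.59 kb away on the other strand, rose by 0.91 in mRNA-seq (SE 0.33, edgeR adjusted p = 0.0240; 0.146 with TMM scaling) and had 0.41 in Ribo-seq (SE 0.43). Glt8d2 had 1 read in control and 1 at 18 h in mRNA-seq.

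**Figure D5:**
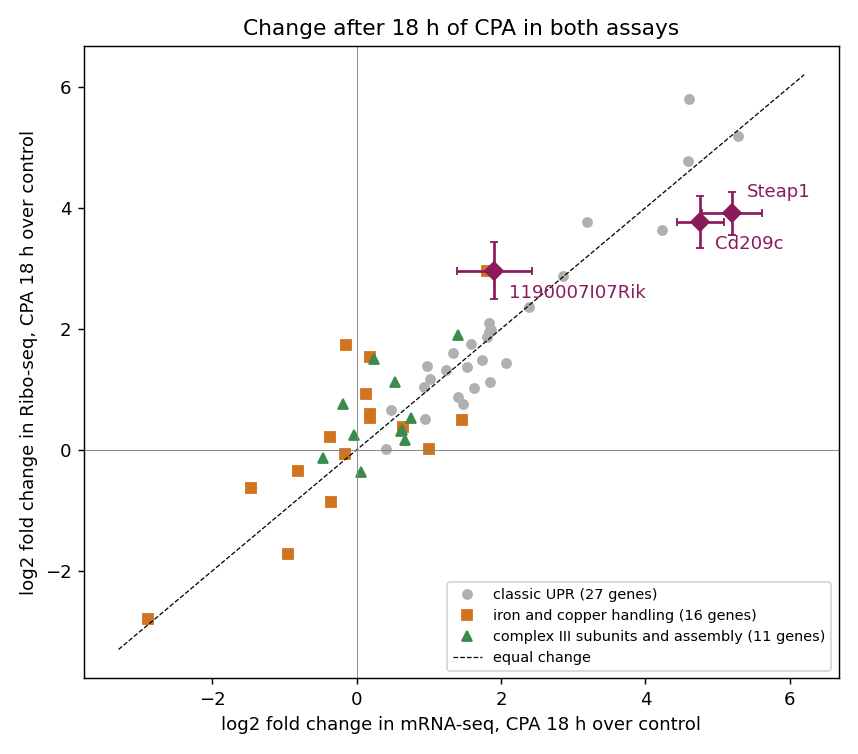
Log2 fold changes after 18 h of CPA in mRNA-seq (x axis) and Ribo-seq (y axis) of the 3 genes (diamonds, with SE) and of the measured genes of 3 lists; the dashed line is equal change. Steap1 and Cd209c lie under the line among the highest UPR genes, and 1190007I07Rik lies above it at 1.90 and 2.96.

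The genes most like each member across the 9 mRNA-seq libraries were sought by Pearson's r on log2(RPKM + 0.5) among 4645 genes with a mean of at least 5 RPKM. These libraries fall into CPA18 and the rest, so r mainly reads the step at 18 h, and libraries share depth and experiment. Nearest to Steap1 were Got1 (r = 0.989), which transfers amino groups between aspartate and glutamate, Fam50a (0.985), Stbd1 (0.984), Dnaja3 (0.982) and Dhrs7 (0.979). Stbd1, a glycogen-binding protein, went from 9.32 to 103 RPKM.

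Among those nearest to Cd209c were Cth (r = 0.980), which makes cysteine from cystathionine, Aldh5a1 (0.980), Ghitm (0.974) and Aimp1 (0.973). Cth went from 1.22 to 19.2 RPKM. For 1190007I07Rik they were Tmem254b (0.968), Fam216a (0.954), Zfp64 (0.952), Ppp2cb (0.951) and Ncbp2 (0.950), with log2 fold changes at 18 h of 0.92 to 1.48 in mRNA-seq. Among the members, r was 0.932 between Steap1 and Cd209c, 0.802 between Steap1 and 1190007I07Rik and 0.766 between Cd209c and 1190007I07Rik, and in the 9 Ribo-seq libraries it was 0.773, 0.812 and 0.763.

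Totals ranged from 520960 to 4755030 reads in mRNA-seq and from 168129 to 1083297 in Ribo-seq, with the lowest Ribo-seq totals in CPA18. At the lowest total, 3 reads correspond to 17.8 RPM (reads scaled to a common total), so counts under 10 in the Ribo-seq libraries carry large errors. All 15 β-cell markers were measured, and 13 fell at 18 h in each assay, including Ins1 by 2.63 and Ins2 by 1.96 on the log2 scale in mRNA-seq. Over all genes 7.89% fell in mRNA-seq and 6.25% in Ribo-seq. With TMM scaling 15 of the markers fell in mRNA-seq and 13 in Ribo-seq. The insulin genes take a large share of the reads, so scaling mattered: over all genes the median log2 fold change at 18 h (mRNA-seq, then Ribo-seq) was 0.38 and 0.42, and with TMM scaling 0.01 and 0.06. Of the genes called in mRNA-seq 77.4% rose, and 50.4% with TMM scaling; in Ribo-seq 80.4% and 49.3% did. The mRNA-seq values of Steap1, Cd209c and 1190007I07Rik at 18 h were 4.68, 4.39 and 1.47 with TMM scaling, and they stayed positive under all scalings tried. Of 14 markers of other islet and exocrine cells, only Gcg, the glucagon gene, was measured. At 18 h it had log2 fold changes of -0.41 in mRNA-seq and -0.51 in Ribo-seq, which did not pass the test, and with TMM scaling -0.78 and -0.88, which did.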

How the data were processed

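MIN6 cells were profiled by mRNA-seq and Ribo-seq. The authors kept reads of 15 to 40 nt that passed their quality filter and aligned them with Bowtie2 (version not given in the sources used here) to the RNA reference of GRCm38. The deposited counts are reads per RefSeq transcript, and the deposited RPKM is what the authors made of them with each transcript's length and the total of the library. No strand setting is given in the sources used here. Libraries were grouped by title. In experiment 2 the descriptions of the control libraries name the other assay than the titles, and the block headers of the deposited table follow the titles.

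RefSeq names were found for 30232 of 30741 transcripts by full identifier and for 478 by identifier without version, and 31 stayed unnamed. Genes (6929) hold the summed counts and RPKM of the 10163 transcripts that every one of the 18 libraries detected with 1 read or more. The main test was edgeR's quasi-likelihood test (edgeR 4.0.16, R 4.3.3) on the counts, with the total as library size, all treatments of an assay in 1 fit and the experiment as a block. The change in ribosome occupancy was the interaction of assay and treatment over 18 libraries, blocked by experiment within assay. Adjustment was by Benjamini-Hochberg, and 0.05 was the threshold. Standard errors were taken from the log2 fold change and its F statistic. The pairing comes from the labels, whose descriptions number the batches. Deviations from the treatment means correlated between libraries of the same number with a mean r of 0.568 in mRNA-seq (0.112 to 0.762) and 0.142 in Ribo-seq (0.0801 to 0.190). The labels number the batches and the study's text calls the experiments independent. With the experiment as a block, differences in level between experiments are removed, and the p-values measure how the changes by treatment vary between experiments.

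Counting intervals of ratios are exact binomial 95% intervals. These and the limit of 3 counts cover counting error only, since reads carried no molecular identifiers that are stated. The fits were tested on simulated data. Alternatives were TMM scaling, totals without Ins1 and Ins2, DESeq2 1.42.0, limma 3.58.1 on log2(RPKM + 0.5) and log2(RPKM + 1), no detection filter, no block, each experiment left out and the control libraries of experiment 2 left out. Named are the 3 genes, their families and complex III, the nearest 2 protein-coding genes on each side, the 5 genes with the highest r for each (1 of them is not reported here), and up to 3 called genes with the largest change from each other list. Cd74, Csf1r, Cd68, Tyrobp, H2-Aa, H2-Ab1, Synj2bp, 2610524H06Rik and E030030I06Rik were named after their values were seen, as were list genes with no call. Members and lists were chosen with earlier results of these data known.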

Additional observations from a re-analysis of the deposited data

How the results depend on the processing

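In 187 of 198 values computed under alternatives, the direction and the side of the threshold (at 1 h) or the value within 1 SD of the experiments (at 18 h) were as reported. The 187 include 1 h values without an adjusted p from DESeq2. These are Steap1 in Ribo-seq and occupancy, Cd209c in Ribo-seq and 1190007I07Rik in all 3 measures. For Cd209c at 18 h the SD was wide (1.87 in Ribo-seq and 2.35 for occupancy), so values far from those reported also count. At 18 h the log2 fold changes under the alternatives ran from 4.68 to 5.63 for Steap1, 4.35 to 4.96 for Cd209c and 1.29 to 2.08 for 1190007I07Rik in mRNA-seq, and from 3.54 to 4.11, 2.81 to 5.13 and 2.60 to 3.15 in Ribo-seq. The Cd209c occupancy change at 18 h ranged from -2.12 to 0.36 when an experiment was left out. At 1 h, leaving out an experiment gave -0.48 to 0.78 for Steap1 in mRNA-seq, -0.32 to 0.43 in Ribo-seq and -1.10 to 0.89 for its occupancy, and -0.23 to 1.87 for the occupancy of Cd209c. Without the control libraries of experiment 2, Steap1 in Ribo-seq was -0.22 and Cd209c in mRNA-seq was -0.0043, and with limma on log2(RPKM + 0.5) the occupancy change of Steap1 was 0.014. The cause of these reversals was not tested. 1190007I07Rik passed the threshold at 1 h in Ribo-seq with limma on log2(RPKM + 0.5) (1.42, adjusted p = 0.0187), limma on log2(RPKM + 1) (1.35, adjusted p = 0.0212) and no detection filter (1.67, edgeR adjusted p = 0.0110). Over the edgeR and limma alternatives its adjusted p ran from 0.0110 to 0.429, and DESeq2 gave none (log2 fold change 1.51).

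Without the replicate block, the 1 h Ribo-seq value of 1190007I07Rik was 1.47 (edgeR adjusted p = 0.156) and no call on the 3 genes changed, while over all genes 137 in place of 2421 were called at 18 h in mRNA-seq, 0 in place of 65 at 1 h, 219 in place of 462 at 1 h in Ribo-seq, and 3 in place of 33 for occupancy at 18 h. Counts over all genes also moved by more than 1.5 times elsewhere. At 1 h in mRNA-seq 28 were called with TMM scaling, 37 with DESeq2, 21 and 23 with limma, 22 without the detection filter and 17 to 139 with an experiment left out. At 1 h in Ribo-seq limma called 234 and 225. At 18 h DESeq2 called 1062 in place of 2205 in Ribo-seq, and 917 were called in mRNA-seq without experiment 3 and 1374 without the control libraries of experiment 2. For occupancy at 1 h 19 were called with TMM scaling, 37 with DESeq2 and 1 with limma in place of 6, and 57 without experiment 3. For occupancy at 18 h DESeq2 called 59 and limma 16 and 15. Low counts limit all 1 h comparisons of these genes and the ratios within experiments.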
